A study of Mus musculus with 32 samples.

Results

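Transporters of the blood-brain barrier were followed through 28 single cells and 4 pools of 10 cells of mouse subventricular zone, a germinal layer along the lateral ventricles, at postnatal day 21. Of 10 names chosen, 9 were analysed, each as 1 line of a table of 38738 gene symbols: Slc2a1, Slc3a2, Slc16a1, Mfsd2a, Slco1a4, Slco1c1, Slc22a8, Abcb1a and Abcg2. The labels give the tissue, the age and the number of cells per library, and name no strain, genotype, animal, sort or treatment. The 28 cells therefore stood as 1 sample of cells, no p-value was made from them, and the values below are descriptions. Each value is an FPKM, a number of fragments scaled to the length of the transcript and to the mapped fragments of the library, which allows levels to be set side by side between genes.

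The capillaries of the brain are sealed by tight junctions, so that polar nutrients, hormones and drugs cross them only through carriers and pumps in the membranes of the endothelial cells. Carriers of the solute carrier families bring in glucose, amino acids, lactate, lipids and thyroid hormone, and pumps of the ATP-binding cassette families return lipophilic compounds to the blood. Several of the same genes are also used outside the vessels, among them in the choroid plexus, in astrocytes and in microglia.

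Cells were described by 12 marker lists that contain none of the transporters. A list led a library when its mean log2(FPKM + 1) was the highest and at least 3 of its genes were at FPKM of at least 1, the level at which a gene is called found. Endothelial markers led 8 cells (cells 1, 2, 3, 6, 7, 8, 16 and 17), with 8 to 12 of 12 markers found in each. These are called endothelial-like, and the other 20 cells were led by neuroblast (7 cells), microglia (4), ependymal (3), oligodendrocyte (3), astrocyte (2) and choroid plexus (1) lists. The summed level of the 12 endothelial markers was 4995 to 23304 FPKM in the endothelial-like cells and 0.0314 to 41.7 FPKM in the other cells. Cldn5, the claudin of endothelial tight junctions, had 1114 to 2998 FPKM in the endothelial-like cells and was listed at 0 in cells 18 to 28. The 8 endothelial-like cells had 3061 to 6978 symbols found, the other 20 cells 2107 to 10169, and the 4 pools 10477 to 12869. Among the endothelial-like cells, cell 3 also had 8 of 12 microglial markers, at a summed 2447 FPKM. Cell 6 had 6 of 11 oligodendrocyte and 4 of 10 choroid plexus markers, at a summed 308 and 263 FPKM. The remaining endothelial-like cells had at most 4 markers of any other list, at summed levels of up to 752 FPKM. Cell 1 lacked Cdh5 and Erg, which were listed at 0, and had Pecam1 and Tie1 at only 0.482 and 0.301 FPKM.

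Cells 18 to 22 and cells 23 to 28 formed 2 library sets. For each cell, the genes that reached 500 FPKM there and stayed below 5% of this elsewhere were traced through the remaining libraries, and cells were joined where at least 80% of such genes, on average, recurred above 0. All 4 cells led by microglial markers and all 7 led by neuroblast markers lay in these sets. Cell type and library set therefore cannot be told apart there, and values for the 9 other cells outside the sets (cells 4, 5 and 9 to 15) are given beside those for the 11 cells within them.

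Promoters are shown for 4 of the transporters. Slco1a4 was found in 1 of the 20 other cells, Slco1c1 and Mfsd2a in 3 each and Slc2a1 in 9. Whether promoter content bears on where a gene was found was not tested. RefSeq gave 11 starts for the 9 genes, and the 250 bases before a start were searched on both strands for the letters CTTTGA (bound by TCF and LEF factors of the Wnt pathway), CCGGAA (ETS factors), ACAATG (SOX factors), TGTTTAC (FOX factors) and ACGTG (HIF factors). Matches are in capitals, and each sequence runs 5′ to 3′ on the strand of its gene in GRCm38.p6. The coordinates are 6:141856221-141856470 on the minus strand for Slco1a4, 6:141524104-141524353 on the plus strand for Slco1c1, 4:122961189-122961438 on the minus strand for Mfsd2a and 4:119108495-119108744 on the plus strand for Slc2a1.
Slco1a4: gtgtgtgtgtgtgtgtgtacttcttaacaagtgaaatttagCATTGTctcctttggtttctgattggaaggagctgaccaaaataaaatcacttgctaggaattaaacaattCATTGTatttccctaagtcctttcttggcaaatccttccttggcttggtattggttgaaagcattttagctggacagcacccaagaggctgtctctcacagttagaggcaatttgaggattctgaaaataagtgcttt
Slco1c1: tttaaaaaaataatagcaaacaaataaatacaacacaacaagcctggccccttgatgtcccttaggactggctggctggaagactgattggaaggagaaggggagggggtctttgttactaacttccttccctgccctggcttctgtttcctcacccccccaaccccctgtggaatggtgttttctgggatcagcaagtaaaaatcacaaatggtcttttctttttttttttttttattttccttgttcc
Mfsd2a: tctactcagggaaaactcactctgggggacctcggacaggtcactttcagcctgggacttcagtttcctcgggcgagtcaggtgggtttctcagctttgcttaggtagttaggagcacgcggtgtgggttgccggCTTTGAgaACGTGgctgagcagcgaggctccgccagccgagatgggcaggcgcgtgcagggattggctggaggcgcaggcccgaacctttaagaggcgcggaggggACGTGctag
Slc2a1: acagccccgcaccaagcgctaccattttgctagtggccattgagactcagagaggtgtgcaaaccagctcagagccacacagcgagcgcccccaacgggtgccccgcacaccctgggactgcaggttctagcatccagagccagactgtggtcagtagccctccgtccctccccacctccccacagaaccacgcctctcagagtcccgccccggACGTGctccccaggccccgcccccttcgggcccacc
Slco1a4 held ACAATG at 2 places, Slco1c1 held none of the 5 motifs, Mfsd2a held CTTTGA once and ACGTG at 2 places, and Slc2a1 held ACGTG once. Of 32851 promoters of the same length, 13.8% held CTTTGA, 12.03% CCGGAA, 10.7% ACAATG, 3.17% TGTTTAC and 16.6% ACGTG. The CpG content also differed between the promoters. Slco1a4 and Slco1c1 had 0 CpG, as did 7.87% of all promoters, and their GC content was 39.2% and 42.8%. Mfsd2a had 17 CpG and Slc2a1 had 13, against a median of 6 over all promoters. Among the other transporters, the promoters of Slc16a1 and Slc3a2 had 37 and 11 CpG, that of Slc22a8 had 1, that of Abcb1a had 0, and the 3 starts of Abcg2 had 3, 10 and 23. Abcb1a also held CTTTGA at 2 places and TGTTTAC once. The RefSeq starts of Abcb1a, Slc3a2 and Slc22a8 lay 92986, 9472 and 1928 bases from the start of the gene in the deposited table, so their promoters may not be those of the measured transcripts.

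All 9 transporters were found in the endothelial-like cells, and most of them were found less often elsewhere. Of 72 pairs of a transporter and an endothelial-like cell, 71 were at FPKM of at least 1, against 51 of 180 pairs in the other cells. The exception was Slc3a2 in cell 1. Of the 51 pairs, 36 were among the 81 pairs of the 9 other cells outside the library sets. The remaining 15 were among the 99 pairs of the 11 cells of the sets. Each of the 9 genes was found in at least 7 of the 8 endothelial-like cells, as were 10.4% of the 18854 symbols found in any cell. Of the 9, 5 (Mfsd2a, Slco1a4, Slco1c1, Slc22a8 and Abcb1a) were also found in at most 3 of the 20 others. Both held for 0.636% of the symbols. Outside the library sets these 5 genes were found in 0 to 3 of the 9 other cells. The summed level of the 9 genes was 2107 to 7140 FPKM (median 4233) in the endothelial-like cells, 78.9 to 885 FPKM (median 318) in the 9 other cells outside the library sets, and 1.03 to 1057 FPKM (median 4.89) in the 11 cells of the sets. The sums did not overlap between the endothelial-like cells and any other cell. Set against all FPKM of a library, the 9 genes made up 0.231% to 0.736% of each endothelial-like cell.

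Per gene, the ratio of mean FPKM in endothelial-like cells over the other cells was taken as log2 after adding 1 to both means. It was at least 2, or 4-fold, for 8 of the 9 transporters, against 10.8% of the 18854 symbols found in any cell. Against the 9 other cells outside the library sets it was at least 2 for 7 of the 9, against 9.82% of symbols, with Slc16a1 at 1.99, and with libraries scaled to the same upper quartile for 7 of the 9, with Abcg2 at 1.30. The median over the 9 genes was 4.47, and the median over all symbols was -0.30. With means of log2 values in place of the log2 of means, these medians were 7.32 and -0.09. Of the 9, 3 (Slco1a4, Slco1c1 and Abcb1a) had every endothelial-like cell above every other cell, as did 0.239% of all symbols. Since cells were sorted by marker genes of the same libraries, these ratios describe where the transporters lay and test nothing.

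Nutrient carriers were led by Slc2a1, the glucose transporter GLUT1 (chromosome 4, 119108711 to 119137330, GRCm38). Slc2a1 had 1694, 806, 2152, 582, 584, 3053, 1333 and 1276 FPKM in endothelial-like cells 1, 2, 3, 6, 7, 8, 16 and 17. It was also found in all 9 other cells outside the sets, at 21.9 to 616 FPKM (median 88.8), and was listed at 0 in all 11 cells of the sets. The groups overlapped through cell 14, led by astrocyte markers, where its 616 FPKM lay above the values of endothelial-like cells 6 and 7. Cell 15, led by ependymal markers, had 264 FPKM, and the 3 cells led by oligodendrocyte markers (cells 4, 12 and 13) had 22.4, 88.8 and 40.6 FPKM. Of the 1191 symbols found in all 9 other cells outside the sets, 13 were listed at 0 in all 11 cells of the sets (1.09%), and Slc2a1 was among these. A listed 0 may stand for a level that the quantification did not resolve, and a find in 0 of 11 cells still allows a share of up to 27.3%. The antisense gene Gm12868 overlaps the 3′ end of Slc2a1 and was listed at up to 1333 FPKM, in cell 8, where Slc2a1 was highest. The strand setting is not given in the sources used here, so reads of Slc2a1 and Gm12868 cannot be told apart.

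Mfsd2a, a carrier of lysophosphatidylcholine with docosahexaenoic acid that also holds back transcytosis in brain endothelium (chromosome 4, 122946850 to 122961188), was more limited. It had 831, 602, 856, 212, 244, 462, 110 and 457 FPKM in endothelial-like cells 1, 2, 3, 6, 7, 8, 16 and 17. Outside these it was found in 3 cells, at 165 FPKM in cell 11 (led by astrocyte markers), 27.1 in cell 5 (choroid plexus) and 15.7 in cell 12 (oligodendrocyte). The groups thus overlapped only through cell 11, whose value lay above that of endothelial-like cell 16. Endothelial markers were near 0 in cells 5 and 11, with Cldn5 at 0.556 and 0.116 FPKM and the 12 markers summing to 3.26 and 8.28 FPKM. In cell 12 Cldn5 was at 37.2 FPKM, the highest value outside the endothelial-like cells, while the other 11 markers were each under 1 FPKM.

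Slc16a1, the monocarboxylate carrier MCT1 for lactate and ketone bodies (chromosome 3, 104638668 to 104658462), had the lowest median of the 9 genes in endothelial-like cells, 26.3 FPKM. Its values in endothelial-like cells 1, 2, 3, 6, 7, 8, 16 and 17 were 124, 12.3, 12.3, 14.1, 34.9, 17.7, 346 and 86.9 FPKM. It was found in 7 of the 9 other cells outside the sets, where its median was 15.8 and its highest values were 59.0 FPKM in cell 15 (ependymal) and 49.7 in cell 4 (oligodendrocyte). The groups overlapped, with 5 of the 8 endothelial-like values under the 59.0 FPKM of cell 15. Bsg, the basigin chaperone that carries MCT1 to the membrane, had 4643 to 13455 FPKM in endothelial-like cells and 0.657 to 1679 FPKM in the other cells, so the groups did not overlap for the partner and did for the carrier.

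Slc3a2, the heavy chain CD98 that pairs with light chains to carry large neutral amino acids (chromosome 19, 8706882 to 8723369), was found in 26 of 28 cells (92.9%, exact 95% Clopper-Pearson interval 76.5% to 99.1%). Its endothelial-like values were 0.438, 221, 548, 183, 393, 600, 131 and 486 FPKM in cells 1, 2, 3, 6, 7, 8, 16 and 17. Cells outside the sets that were not endothelial-like had 0.898 to 236 FPKM (median 107), and the highest of all cells was 1054 FPKM, in cell 18, led by microglial markers. The ratio of 1.411 was the lowest of the 9 genes, and scaling each library to the same upper quartile turned it to -1.18, where the median of all symbols was -0.90 in place of -0.30. In cells 23 to 28 Slc3a2 had 169 FPKM in cell 25 and 1.009 to 3.81 in the other 5. With values under 2% of the highest value in the library set put at 0, it was found in 4 of the 11 cells of the sets in place of 11. The light chains Slc7a7, Slc7a8 and Slc7a10 were each found in 0 to 1 of the 8 endothelial-like cells, at no more than 1.49 FPKM. Slc7a10 had 1224, 621 and 750 FPKM in cells 14, 11 and 5. Slc7a5, a further light chain, was not analysed here. The values therefore do not tell whether endothelial-like cells had a partner for the heavy chain.

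**Figure D1:**
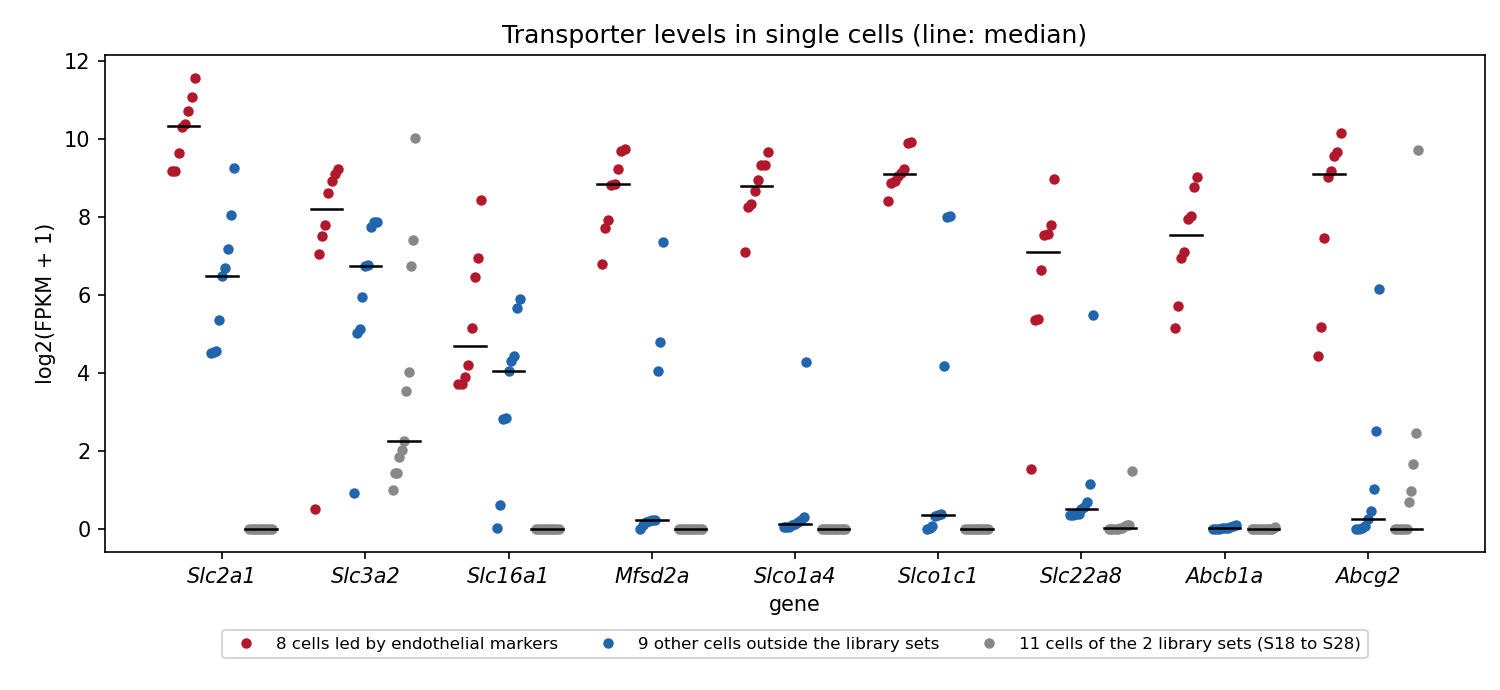
Level of each transporter as log2(FPKM + 1) on the y axis by gene on the x axis; each point is 1 cell, red for the 8 endothelial-like cells, blue for the 9 other cells outside the library sets and grey for the 11 cells of the sets, and black lines are medians. The red points stand above all others for Slco1a4, Slco1c1 and Abcb1a, and overlap the blue ones for Slc2a1, Slc3a2, Slc16a1, Mfsd2a, Slc22a8 and Abcg2.

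The carriers of organic anions and thyroid hormone were found in few other cells. Slco1a4, the organic anion transporter Oatp1a4 (chromosome 6, 141805440 to 141856199), had 136, 410, 309, 323, 650, 642, 492 and 818 FPKM in endothelial-like cells 1, 2, 3, 6, 7, 8, 16 and 17. The other cells had at most 18.7 FPKM, in cell 5, led by choroid plexus markers, and this was the single other cell in which it was found. The ratio was 7.90, which ranked 54 among all symbols of the table. The groups did not overlap.

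Slco1c1, the thyroxine carrier Oatp1c1, lies 235 kb from Slco1a4 (chromosome 6, 141524386 to 141570177) and varied little among endothelial-like cells. It had 566, 489, 602, 533, 963, 473, 339 and 967 FPKM in cells 1, 2, 3, 6, 7, 8, 16 and 17, so that the highest value was 2.85 times the lowest. It was found in 3 other cells, at 263 FPKM in cell 5 (choroid plexus), 254 in cell 11 (astrocyte) and 17.2 in cell 14 (astrocyte). All 3 lay under the lowest endothelial-like value.

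Slc22a8, the organic anion transporter OAT3 (chromosome 19, 8591254 to 8611834), varied widely. It had 1.90, 40.3, 187, 190, 99.4, 504, 223 and 41.4 FPKM in endothelial-like cells 1, 2, 3, 6, 7, 8, 16 and 17. Cell 5, led by choroid plexus markers, had 44.5 FPKM, above the values of endothelial-like cells 1, 2 and 17. Cells 12 and 28 had 1.24 and 1.82 FPKM, and every other cell was under 1. In the 9 other cells outside the sets Slc22a8 was never listed at 0, with a lowest value of 0.296 FPKM. Slc22a8 and Slc3a2 lie 95.05 kb apart, and their Spearman correlation over the 28 cells was 0.41.

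The efflux pumps differed from each other in where they were found. Abcb1a, which encodes a P-glycoprotein that pumps many drugs out of brain endothelium (chromosome 5, 8660077 to 8748575), had 520, 123, 259, 35.0, 51.9, 248, 138 and 438 FPKM in endothelial-like cells 1, 2, 3, 6, 7, 8, 16 and 17. No other cell exceeded 0.0744 FPKM, and Abcb1a was found in 0 of 20 other cells. Counting error alone allows a share of up to 15% if the 20 cells are taken as independent. Of these, 11 belong to the library sets, where a listed 0 may be an unresolved level, so the share may be higher. Cells outside the sets number only 9. The ratio of Abcb1a, 7.81, ranked 56 among all symbols. The groups were farther apart for no other transporter, with a lowest endothelial-like value of 35.0 against a highest other value of 0.0744 FPKM. Abcb1b, its close copy, was found in all 8 endothelial-like cells and no other, at 3.29 to 34.5 FPKM, or 1.27% to 35.0% of the Abcb1a level. How reads shared by the copies were divided is not given in the sources used here, so the Abcb1b values are uncertain. The same holds for Slco1a1, Slco1a5 and Slco1a6, copies near Slco1a4 that were found in 7 endothelial-like cells each at no more than 2.95% of its level, and in 0, 0 and 7 other cells.

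Abcg2, the breast cancer resistance protein, a pump that is also a marker of some stem cells (chromosome 6, 58584523 to 58692869), had 759, 176, 20.8, 35.2, 814, 1141, 580 and 527 FPKM in endothelial-like cells 1, 2, 3, 6, 7, 8, 16 and 17. Its highest value elsewhere was 839 FPKM in cell 19, led by microglial markers, above 7 of the 8 endothelial-like values. The other libraries of that set (cells 18, 20, 21 and 22) had 2.17, 0.992, 4.57 and 0.634 FPKM, and under the limit of 2% cell 19 was the only cell of the sets with the gene. Endothelial markers summed to 0.433 FPKM in cell 19, with Cldn5 and Flt1 listed at 0. Cldn5 was listed at 0 in all 11 cells of the sets, so that 0 is not particular to cell 19. Cell 4, led by oligodendrocyte markers, had 70.7 FPKM of Abcg2, and cells 5 and 9 had 4.73 and 1.04. Abcg2 was listed at 0 or under 0.4 FPKM in cells 10 to 15, which include the cells led by astrocyte markers.

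**Figure D2:**
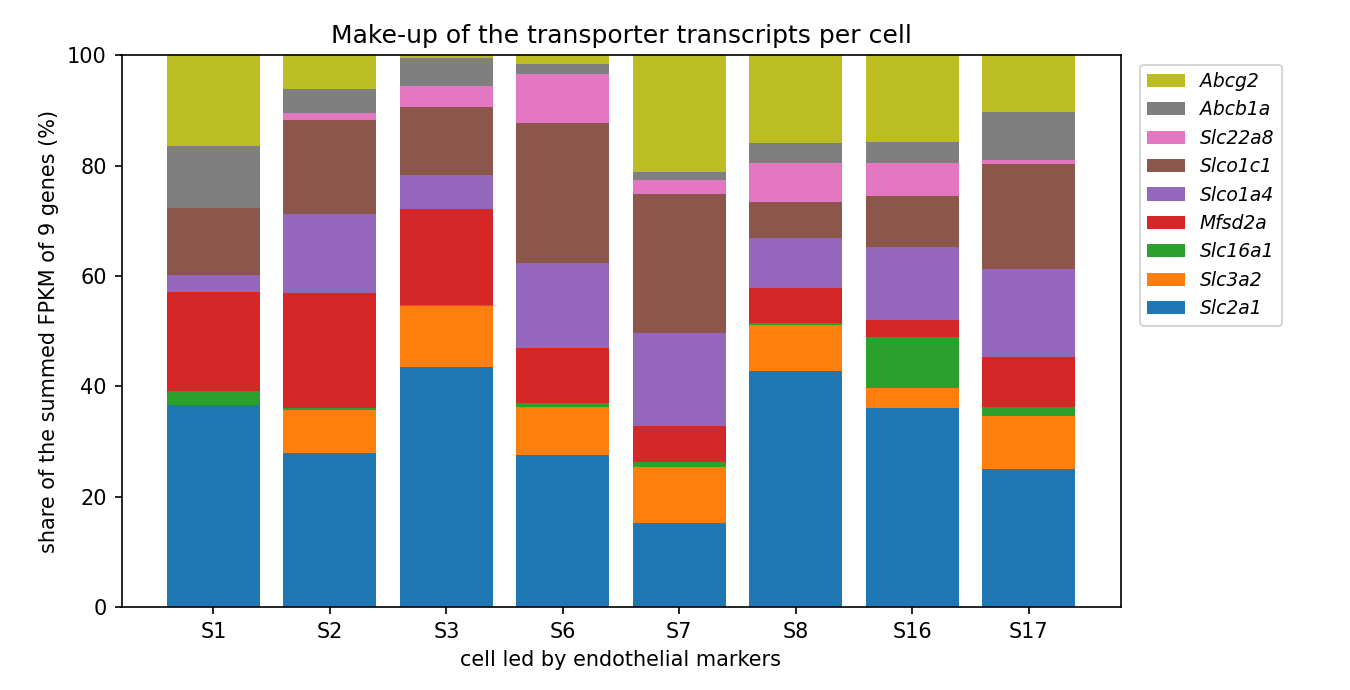
Share of each transporter in the summed FPKM of the 9 genes (y axis, percent, stacked to 100) in each of the 8 endothelial-like cells (x axis). Slc2a1 takes 15.2% to 43.5% and is the largest part in every cell but S7, where Slco1c1 takes 25.1%.

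Among the endothelial-like cells the make-up of the transporters differed. Slc2a1 was the most abundant of the 9 in 7 of 8 cells and Slco1c1 in cell 7. By median level the order in endothelial-like cells was Slc2a1 (1304 FPKM), Abcg2 (554), Slco1c1 (549), Mfsd2a (460), Slco1a4 (451), Slc3a2 (307), Abcb1a (193), Slc22a8 (143) and Slc16a1 (26.3). The cell ranges of neighbours in this order overlapped throughout, so that the places within it are not firm. Slc3a2, Slc22a8 and Abcg2 varied the most, with SDs of 2.87, 2.30 and 2.18 on the log2(FPKM + 1) scale (n = 8 cells), and Slco1c1 the least, with 0.51. Cell 1 carried much of this. Without it, an alternative chosen after the values were seen, the SDs of Slc3a2 and Slc22a8 were 0.86 and 1.32 (n = 7 cells), that of Abcg2 was 2.26, and those of Slco1a4 and Slco1c1 were 0.54 and 0.55, where Slco1a4 had 0.82 with cell 1.

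Lists of 8 artery and 8 vein genes were set beside these values. Cells 2 and 3 had 6 and 5 of 8 artery genes, with the artery gene Gkn3 at 2288 and 701 FPKM, and no other endothelial-like cell had more than 2. Cells 1 and 16 had 6 and 8 of 8 vein genes, with Slc38a5, an amino acid carrier, at 1259 and 1261 FPKM, the adhesion molecule Icam1 at 2769 and 715, and the vein regulator Nr2f2 at 77.2 and 21.7. The other 4 cells (6, 7, 8 and 17) had 2 to 5 vein genes and 0 to 2 artery genes, and cells 2 and 3 had 3 and 5 vein genes beside their artery genes. The lists did not part the cells in every gene: the artery gene Vegfc had 206 and 112 FPKM in cells 2 and 3 and 119 in cell 16, and the vein gene Vwf had 851 in cell 3, against 88.9 and 842 in cells 1 and 16. Gja5 of the artery list was found in no library. Slc16a1 was at 12.3 FPKM in both cells 2 and 3, under its values of 124 and 346 in cells 1 and 16 and of 14.1 to 86.9 in the other 4. Abcg2 was at 176 and 20.8 FPKM in cells 2 and 3, against 759 and 580 in cells 1 and 16, and the other 4 cells spanned both, at 35.2 to 1141. Mfsd2a did not follow the same split, with 602 and 856 FPKM in cells 2 and 3, and 831 and 110 in cells 1 and 16. With 2 cells on each side these differences were not tested, and cell 1 had the fewest symbols found of the endothelial-like cells (3061). Cell 3 had 5 of 8 genes of each list, at a summed 998 FPKM for artery and 1065 FPKM for vein genes. It therefore does not stand clearly on the artery side.

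The correlation between transporters was higher over all cells than among the endothelial-like cells, where 8 cells are too few to show that it is absent. The mean pairwise Spearman correlation of the 9 genes was 0.70 over the 28 cells, 0.56 over the 17 cells outside the library sets, 0.49 over the 20 other cells and 0.087 over the 8 endothelial-like cells, where the 36 pairs ran from -0.52 to 0.71. With 1 endothelial-like cell left out, it ran from 0.026 without cell 6 to 0.149 without cell 1, with 0.147 without cell 3, 0.059 without cell 2 and 0.043 without cell 8. Over all cells the highest pair was Slco1a4 with Slco1c1, at 0.96. Cells of a set share a library trait, and each point shares its depth over genes, so these are descriptions. Slc2a1, Mfsd2a, Slco1a4 and Slco1c1 were listed at 0 in all 11 cells of the sets. Such ties enter the values over the 28 cells and those over the 20 other cells, which include the sets. No mean correlation for other genes is given beside them. The genes most like each transporter over the 28 cells, of 6930 compared, were Egfl7 (0.96), Cldn5 (0.96) and Itm2a (0.94) for Slc2a1, Ltbp4 (0.95), Lmo2 (0.95) and Cldn5 (0.95) for Mfsd2a, and Itm2a (0.98), Ablim1 (0.97) and Slco1c1 (0.96) for Slco1a4. For Slco1c1 they were Slco1a4 (0.96), Ablim1 (0.96) and Ltbp4 (0.94), and for Abcb1a Abcb1b (0.93), Esam (0.90) and Mfsd2a (0.90). Slc22a8 had Epas1 (0.94), Il10rb (0.93) and Ceacam1 (0.91), Slc16a1 had Slc38a5 (0.89), Col4a2 (0.89) and Ocln (0.88), and Abcg2 had Tgfbr2 (0.88), Anxa3 (0.87) and Slc6a6 (0.84). Slc3a2 stood apart with lower values, for Pttg1ip (0.82), Ginm1 (0.78) and Alpl (0.73).

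**Figure D3:**
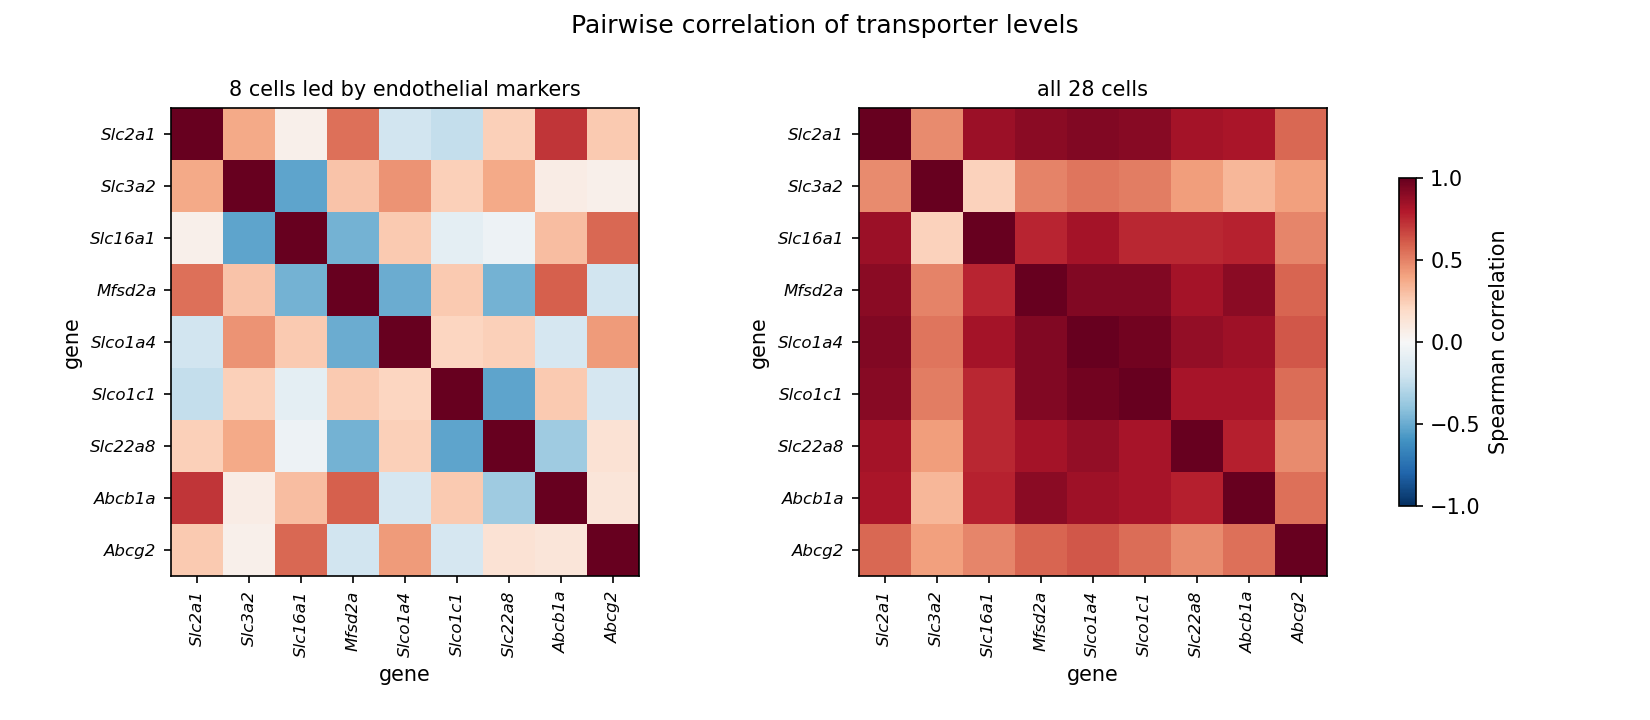
Spearman correlation of each pair of transporters, by colour from -1 to 1, with genes on both axes, over the 8 endothelial-like cells (left) and over all 28 cells (right). The mean over pairs is 0.087 on the left and 0.70 on the right.

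Other carriers and pumps of brain endothelium were counted in the same way. Of 29 such genes, 16 had a ratio of at least 2, against 10.8% of all symbols. A ratio of -2 or less was held by 7, which is near the 22.6% of all symbols that were as low. The median ratio was 2.55. The most abundant in endothelial-like cells were Slc38a5 (335 FPKM on average), the glutamine carrier Slc38a3 (240), the taurine carrier Slc6a6 (215) and the zinc carrier Slc39a10 (133), with ratios of 8.23, 2.55, 3.39 and 4.77. The mean and ratio of Slc38a5 rested mostly on cells 1 and 16, whose values are given above beside the vein genes. The pump Abcc4 was found in 7 of 8 endothelial-like cells and in none of 20 others. The nucleoside carrier Slc29a1 and the pump Abcc5 were found in none of the endothelial-like cells, where they were at no more than 0.464 and 0.231 FPKM, and in 10 and 13 other cells. Slc1a4 and Slc12a2 were likewise found in none of the 8.

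Receptors and coat genes of transcytosis numbered 12, of which 5 had a ratio of at least 2 and 2 a ratio of -2 or less, beside the 10.8% and 22.6% of all symbols. Scarb1, a lipoprotein receptor, and Cav1, the coat protein of caveolae, averaged 246 and 224 FPKM in endothelial-like cells, followed by the transferrin receptor Tfrc (90.4) and Cavin2 (73.0). Cav1 was found in 8 of 8 endothelial-like cells and none of the others. Plvap, a diaphragm protein of fenestrated and leaky vessels, and Cd36, a fatty acid receptor, were found in no library.

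Of 22 partner and regulator genes of the barrier, 13 had a ratio of at least 2 and 2 a ratio of -2 or less, where the shares of all symbols were 10.8% and 22.6%. Bsg averaged 9410 FPKM in endothelial-like cells, the hypoxia factor Epas1 518, the Wnt effector Ctnnb1 379 and Foxf2, a factor of brain mural and endothelial cells, 139. The Wnt pathway factor Lef1 and the Wnt target Apcdd1 were found in 7 and 8 of 8 endothelial-like cells and in 4 and 1 of 20 others. Hif1a was at no more than 1.29 FPKM in endothelial-like cells and was found in 13 other cells. Of 20 relatives of the transporters, 4 had a ratio of at least 2 and 5 of -2 or less, and the 5 are near the 22.6% of all symbols that were as low (10.8% were as high). Among the more abundant were the organic anion carrier Slco2b1 (48.8 FPKM on average), Abcb1b (15.5) and Slco1a6 (8.66). Slc2a3, the glucose transporter of neurons, was at no more than 1.203 FPKM in endothelial-like cells, and Abcg3, Slc22a6 and Slc22a7 were found in no library.

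The 4 pools fell apart by the same markers. Pools 2 and 3 were led by endothelial markers, with 12 of 12 found and sums of 6344 and 8909 FPKM, and pools 1 and 4 by oligodendrocyte markers, with endothelial sums of 15.8 and 8.54 FPKM. In a pool, fewer cells of a type and less RNA per cell cannot be told apart. Summed over the 9 transporters, pools 2 and 3 had 2341 and 4165 FPKM, and pools 1 and 4 had 274 and 415. All 9 genes were higher in pools 2 and 3 than in pools 1 and 4 with no overlap, as were 17.4% of 17067 symbols, and 8 of the 9 had a ratio of at least 2, as did 11.4%. The median ratio of these pools was 4.32 for the 9 genes and 0.11 for all symbols.

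Pool by pool, the levels recalled the single cells. Slc2a1 had 661 and 1475 FPKM in pools 2 and 3, against 59.1 and 141 in pools 1 and 4. Abcb1a had 46.4 and 273 FPKM in pools 2 and 3, against 0.0242 and 0.0229 in pools 1 and 4. Slco1a4 had 316 and 370 FPKM in pools 2 and 3, against 9.31 and 3.20 in pools 1 and 4, and Abcg2 had 158 and 517 FPKM in pools 2 and 3, against 15.1 and 8.74 in pools 1 and 4. All 9 genes of pools 2 and 3 lay within the range of the 8 endothelial-like cells, at 20.5% to 160% of the mean of those cells in pool 2 and 74.5% to 133% in pool 3. Of the 9 genes, 3 (Slc3a2, Slc16a1 and Slc22a8) also lay within that range in pools 1 and 4. For Slc3a2 and Slc22a8 the low end of the range was cell 1 alone, at 0.438 and 1.90 FPKM. The next lowest values were 131 FPKM of Slc3a2 in cell 16 and 40.3 FPKM of Slc22a8 in cell 2. Both lay above the levels of these genes in pools 1 and 4.

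The remaining transporters also differed from each other in their levels in pools 1 and 4. Slco1c1 had 432 and 547 FPKM in pools 2 and 3, against 88.9 and 93.1 in pools 1 and 4. Slc3a2 had 159 and 346 FPKM in pools 2 and 3, against 74.6 and 107 in pools 1 and 4. Slc16a1 had 112 and 108 FPKM in pools 2 and 3, against 18.5 and 25.2 in pools 1 and 4. Slc22a8 had 258 and 120 FPKM in pools 2 and 3, against 7.56 and 8.38 in pools 1 and 4. Mfsd2a had 199 and 409 FPKM in pools 2 and 3, against 0.793 and 27.8 in pools 1 and 4, so that it parted pools 1 and 4 from each other. Choroid plexus markers summed to 36070 and 20647 FPKM in pools 1 and 4, and astrocyte markers to 37.8 and 3151 FPKM. Their part in the transporter values of these pools was not tested.

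**Figure D4:**
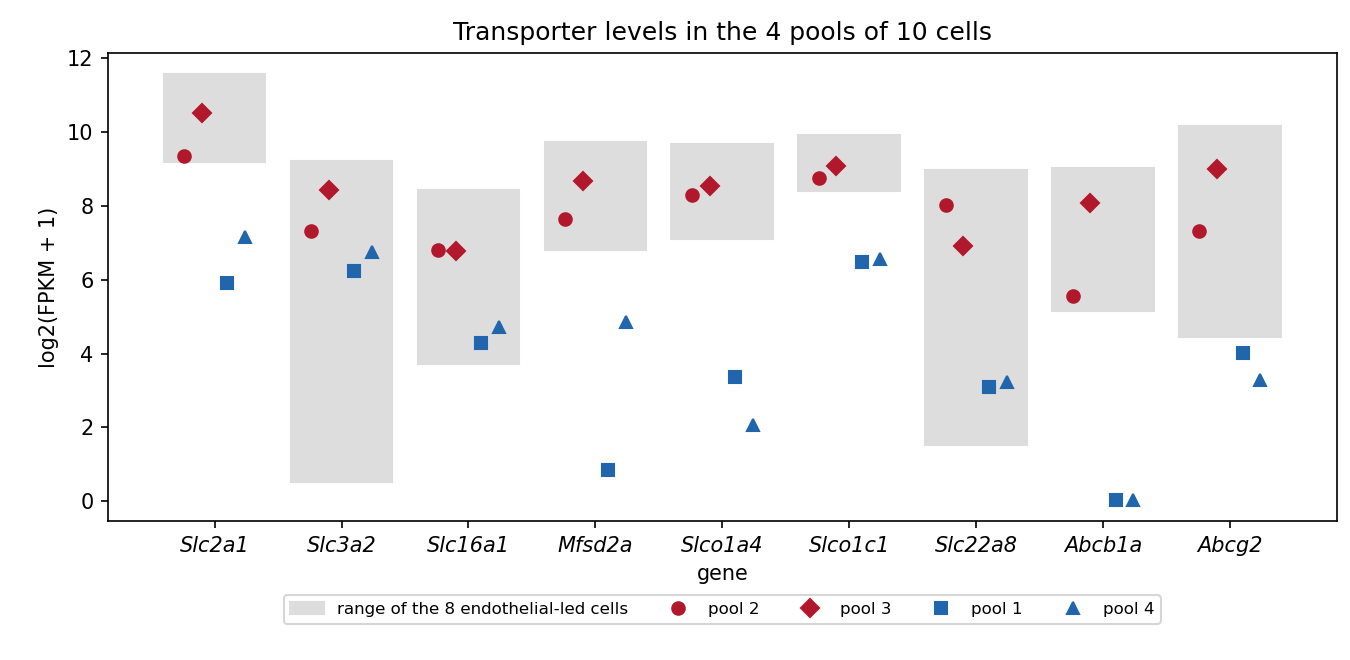
Level of each transporter as log2(FPKM + 1) on the y axis by gene on the x axis in pools 2 and 3 (red) and pools 1 and 4 (blue); grey boxes span the 8 endothelial-like cells. The red points lie inside every grey box, and for each gene both blue points lie under both red ones.

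The 4 pools were also set against the 28 cells as a whole. The log2 ratio of mean FPKM in the 4 pools over the 28 cells had a median of 0.35 over the 9 genes (SD over pools 2.16, n = 4) and of 0.06 over all symbols, and ran from -0.05 for Slc3a2 to 1.13 for Slc16a1. None of the 9 was 4-fold higher or lower, as 2.61% and 5.51% of 19781 symbols were. Without pool 3 the median was -0.64 and without pools 1, 2 and 4 in turn it was 0.73, 0.04 and 0.71, and against the 17 cells outside the library sets alone it was -0.35. With means of log2 values it was 2.88, where all symbols had 0.95, so no direction holds for the group. Slc16a1 averaged 65.8 ± 50.9 FPKM in pools (SD, n = 4) and 29.5 FPKM in cells, and Slc22a8 98.4 ± 119 FPKM in pools and 47.8 in cells.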

How the data were processed

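RNA was measured in 28 single-cell libraries and 4 libraries of 10 cells. The authors deposited FPKM per gene; the submitters' processing notes name TopHat 1.41, Cufflinks 2.02 and mm9. Coordinates are nonetheless written as GRCm38, because 96.0% of the 39011 lines could be tied to GENCODE M21 by gene ID, and 99.7% of these overlapped that gene's GRCm38 position. No source used here gives the strand setting.

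Lines of 1 symbol were summed, and Slc7a5 was not analysed here. The transporters, lists and limits were chosen with earlier results of these data known. Ratios are log2((mean FPKM + 1)/(mean FPKM + 1)), which understates differences of low genes. Clopper-Pearson intervals at 95%, like floors of 3 counts, cover counting error only. Library sets were found from genes under 5% of their highest value in every other cell. Counts of cells found and of groups without overlap were added after the values were seen.

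Named genes were the transporters, the 3 genes of highest Spearman correlation with each among those found in at least 6 cells, and, of each pathway list, the 4 most abundant in endothelial-like cells and those found in no library; some genes of the lists are counted but not reported here by name. Other list genes named (the light chains, Slc1a4, Slc12a2, Slc29a1, Abcc4, Abcc5, Lef1, Apcdd1, Hif1a, Slc2a3 and Nr2f2), relatives and overlapping genes were chosen after their values were seen. No doublet caller was run.

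Equal steps of FPKM times length, in genes of 1 exon and at least 800 bases with an assumed fragment of 200 bases, placed depth at about 6210000 to 20900000 fragments in cells 1 to 17. In the other 15 libraries no step was clear, so their depth is unknown. Python 3.11.15, pandas 2.3.3, NumPy 2.4.6 and SciPy 1.17.1 were used, and the calculations were tested on simulated data. Pseudocounts, thresholds, scaling, averages and the libraries included were varied.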

Additional observations from a re-analysis of the deposited data

Results flagged for a closer look

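Of the 9 transporters, Abcb1a in pool 3 stood apart from the other pools, with a gap to the nearest pool of 0.8299 of the range over the 4 pools. Its values were 46.4 and 273 FPKM in pools 2 and 3, against 0.0242 and 0.0229 FPKM in pools 1 and 4. The gap lay just past the critical value for 4 samples. Chance alone flags about 1 in 20 groups where the 4 samples are of 1 kind. That rate does not hold here, since pools 2 and 3 were led by endothelial and pools 1 and 4 by oligodendrocyte markers. As log2(FPKM + 1), Abcb1a had 5.57 and 8.10 in pools 2 and 3, against 0.0346 and 0.0326 in pools 1 and 4. On that scale pool 3 lay closer to pool 2 than pool 2 did to pools 1 and 4.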

How the results depend on the processing

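No paired analysis was possible because no result comes from a test between groups of replicates and the numbers of cells and pools name unrelated libraries. Averaging log2 values in place of FPKM moved the median ratio of endothelial-like over other cells to 7.32 and that of pools over cells to 2.88, where the median of all symbols moved to 0.95. Against the 17 cells outside the library sets the ratio of pools over cells was -0.35, and with 1 pool left out it ran from -0.64 (without pool 3) to 0.73 (without pool 1). The mean correlation of the 9 genes moved to 0.087 in the endothelial-like cells and 0.49 in the other cells. Under the other settings the median ratio of endothelial-like over other cells was 4.09 to 4.52, within 1 SD, and the number of transporter and cell pairs found was 147, 122, 109 and 107 at FPKM of at least 0.1, 1, 5 and 10, and 113 under the limit of 2%. For single genes, 1 of 81 ratios of endothelial-like over other cells changed sign (Slc3a2, by upper quartile) and 20 of 99 of pools over cells did. Without the 11 cells of the sets the ratio of Abcg2 was 5.73 in place of 3.43 and that of Slc2a1 3.28 in place of 4.42. FPKM without counts limit what can be said of values under 1.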
